A study of Saccharomyces cerevisiae with 7 samples.

Results

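Genes of purine synthesis and of the one-carbon pathway that feeds it were followed in budding yeast cells that lack a subunit of the chromatin remodelling complex SWR-C. The members were chosen by function and are 10 genes: ADE1, ADE4, ADE5,7, ADE6, ADE8, ADE12, ADE13 and ADE17 of de novo purine synthesis, and MTD1 and SHM2 of one-carbon metabolism. Of these, 9 were found by name among the 5371 named genes with values, each with 1 probe and a value on all 7 arrays, and ADE5,7 was not analysed here. Messenger RNA was compared on dual-colour arrays, with arp6Δ on 4 arrays and swr1Δ on 3 arrays, each hybridised together with wild type. All strains had the W303 background, and per the labels they were grown without treatment in YPD at 25 °C to an optical density of 1, although the methods of the study name another temperature and another RNA reagent for its expression arrays. Arp6 is an actin-related subunit of SWR-C, Swr1 is its catalytic subunit, and the complex places the histone variant H2A.Z into nucleosomes. The deletion strain was in the Cy5 channel and wild type in the Cy3 channel of every array, with no dye swap. A fixed dye effect and the effect of a deletion therefore cannot be told apart in the ratios to wild type.

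De novo purine synthesis builds the ring of inosine monophosphate step by step on phosphoribosyl pyrophosphate (PRPP), and branches from there to AMP and to GMP. Folate-bound one-carbon units, made largely from serine, supply carbons of the ring, so that the enzymes of both pathways serve the same product. In yeast the genes of both pathways share activation by Bas1 and Pho2 when adenine runs short. W303 strains commonly carry a mutant ADE2 gene, and the sources used here do not say whether the strains on these arrays do. ADE2 is not a member and is described with the other genes of the pathway.

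Values below are log2 ratios of the deletion strain over wild type, so that 1 is a 2-fold higher and −1 a 2-fold lower ratio. The deleted genes were read first: ARP6 (YLR085C) stood between −1.28 and −0.63 on the arp6Δ arrays and between −0.09 and 0.22 on the swr1Δ arrays, and SWR1 (YDR334W) stood between 0.76 and 1.52 on the arp6Δ arrays and between −1.02 and −0.42 on the swr1Δ arrays. Because the direction of the ratios was settled by these signs, they are no independent check of it. An array gave 5763 to 5910 values, and between 15.8% and 40.2% of them lay beyond 2-fold on arp6Δ arrays, against 1.43% to 5.50% on swr1Δ arrays. The arp6Δ arrays fell into pairs. Over 5593 features, Pearson's r was 0.671 between arp6Δ replicates 1 and 2 and 0.849 between replicates 3 and 4, but 0.261 to 0.370 across these pairs. The labels name no batch that goes with the pairs, which were read from the values, and what sets the pairs apart was not tested. On arp6Δ replicates 1 and 2, 3 stretches of the table, read in the order of the systematic names, matched replicates 3 and 4 better when moved by 1 or 2 rows. None of the 9 members lies in such a stretch. For ADE1, ADE8 and MTD1 the genes around the member also matched somewhat better when moved, and whether their values are displaced was not tested.

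In arp6Δ, the purine genes split by pair of arrays: ADE13, ADE1, ADE17 and MTD1 were high on replicates 1 and 2 and below wild type on replicates 3 and 4. None of the 9 members passed the test over the 4 arrays, where 5.3% of all 5901 features did (limma, adjusted p under 0.05, 2-sided). At an unadjusted p under 0.05 there were 0 members and 1731 features. The median of the 9 fitted values was 0.47, against −0.02 over all features.

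The first steps of the pathway gave small to moderate values. ADE4 (YMR300C) encodes the amidotransferase that commits PRPP to purine synthesis, and its log2 ratios in arp6Δ were 0.62, 1.08, −0.27 and −0.11 on replicates 1 to 4. Its arrays lay above wild type in the pair of replicates 1 and 2 and below it in the other, and the mean was 0.33 ± 0.63 (SD, n = 4; limma adjusted p = 0.472). ADE8 (YDR408C) encodes the first formyltransferase of the pathway, a step that takes a one-carbon unit, and read 0.06, −0.24, −0.20 and 0.08, the narrowest range of the 9 members. Its 4 values straddled 0 with no split by pair, for a mean of −0.08 ± 0.17 (limma adjusted p = 0.813). ADE6 (YGR061C) encodes the next enzyme, which adds the amide nitrogen of glutamine, and read −0.90, 0.06, 0.03 and 0.31. Here replicate 1 alone was low, and without that array the mean was 0.13, against −0.12 ± 0.53 over the 4 arrays (limma adjusted p = 0.777).

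The later steps carried the widest split. ADE1 (YAR015W) encodes SAICAR synthetase, which adds aspartate to the growing ring, and its log2 ratios in arp6Δ were 1.93, 1.56, −0.51 and −0.51. ADE13 (YLR359W) encodes adenylosuccinate lyase, which removes fumarate both in the next step and in the last step to AMP, and read 2.55, 2.96, −0.61 and −0.13. On replicates 1 and 2 ADE13 lay at the 98.0 and 99.9 percentiles of all features, and on replicates 3 and 4 at 20.7 and 42.3. Its mean, 1.19 ± 1.82, was the highest of the 9 members, with a 95% interval of −0.38 to 2.77 (limma adjusted p = 0.267). ADE17 (YMR120C) encodes a bifunctional transformylase and cyclohydrolase that closes the ring, the second step that takes a one-carbon unit, and read 1.72, 1.51, −0.75 and −0.60. The means of ADE1 and ADE17 were 0.62 ± 1.31 and 0.47 ± 1.33 (limma adjusted p = 0.432 and 0.553), and for both the SD was larger than the mean. ADE12 (YNL220W) encodes adenylosuccinate synthetase, which takes inosine monophosphate towards AMP, and its values were far smaller, at 0.21, 0.12, −0.63 and −0.03 (mean −0.08 ± 0.38, limma adjusted p = 0.828).

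The members of one-carbon metabolism were MTD1 and SHM2. MTD1 (YKR080W) encodes an NAD-dependent methylenetetrahydrofolate dehydrogenase of the cytoplasm, and its log2 ratios in arp6Δ were 1.54, 1.89, −0.42 and −0.45. It followed the split of ADE1 and ADE17, with a mean of 0.64 (95% interval −0.49 to 1.77, limma adjusted p = 0.395). SHM2 (YLR058C) encodes the cytoplasmic serine hydroxymethyltransferase, which draws one-carbon units from serine, and read 0.64, 1.15, 0.19 and 0.11. It was the only member above wild type on all 4 arp6Δ arrays, and its mean of 0.52 ± 0.48 did not pass the test (95% interval −0.08 to 1.13, limma adjusted p = 0.216).

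**Figure D1:**
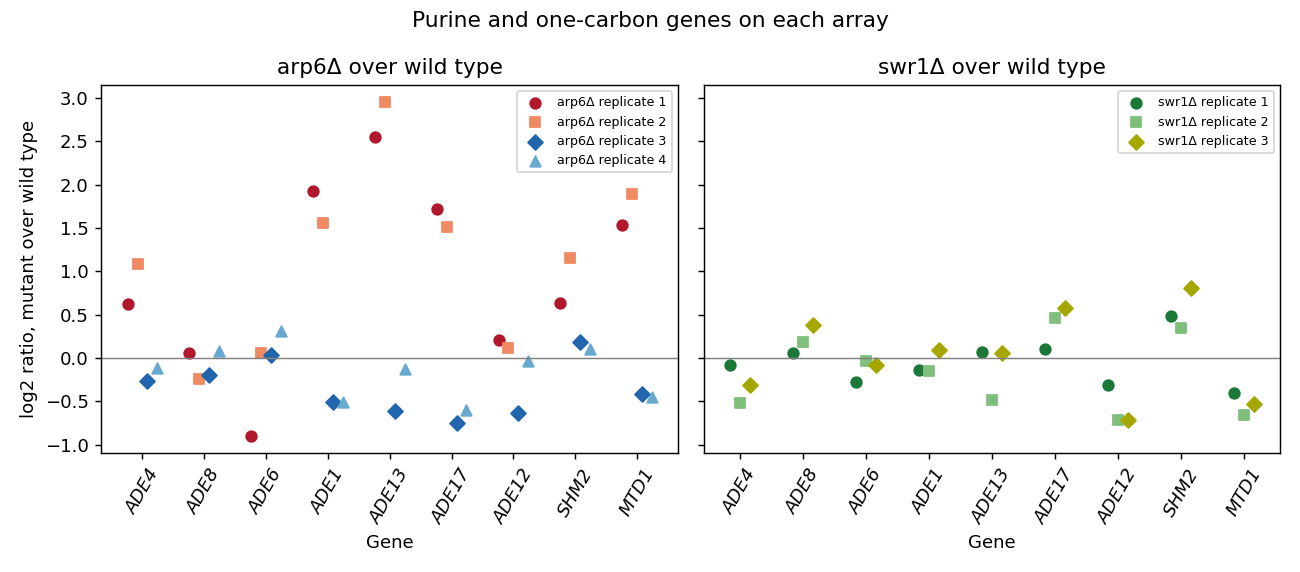
Log2 ratio of deletion strain over wild type (y axis) for the 9 measured genes (x axis, in the order of the pathway and then the one-carbon genes), with 1 point per array, arp6Δ on the left and swr1Δ on the right. ADE1, ADE13, ADE17 and MTD1 read between 1.51 and 2.96 on arp6Δ replicates 1 and 2 and between −0.75 and −0.13 on replicates 3 and 4, while no swr1Δ value passes 1.

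The split between the pairs was then set against all features. A log2 ratio above 1 was found for 4 members on replicate 1 and 6 on replicate 2, against 0 on replicate 3 and 0 on replicate 4. The share of all features above 1 was 19.7%, 8.86%, 7.92% and 6.53% on these arrays. ADE1, ADE13, ADE17 and MTD1 were above 1 on both of replicates 1 and 2 and below 0 on both of replicates 3 and 4. Of 5711 features with all 4 values, 1.73% did the same, a description chosen after the members' values had been seen. Both values of replicates 1 and 2 exceeded both of replicates 3 and 4 for 7 of 9 members, all but ADE6 and ADE8, where 29.7% of all features did. Ranked from the highest difference between the mean of replicates 1 and 2 and that of replicates 3 and 4, ADE13 was at place 47 of 5711 with a difference of 3.13. ADE17 came at place 129 (2.29), ADE1 at 136 (2.26) and MTD1 at 151 (2.15). ADE4 (1.03, place 717), SHM2 (0.74, place 1098) and ADE12 (0.50, place 1592) followed in the same direction, and ADE8 (−0.03) and ADE6 (−0.59) did not.

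**Figure D2:**
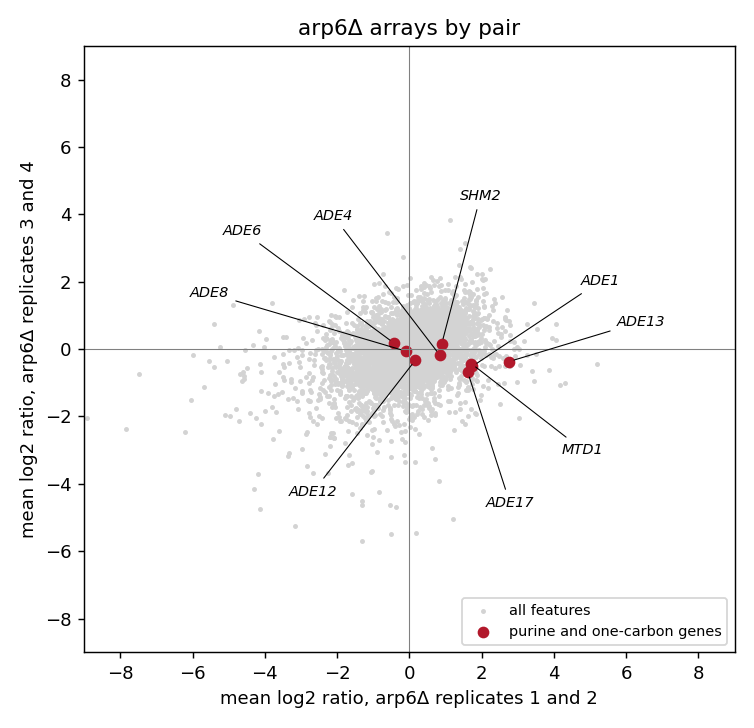
Mean log2 ratio on arp6Δ replicates 1 and 2 (x axis) and on arp6Δ replicates 3 and 4 (y axis), with 1 grey point for each of the 5711 features measured on the 4 arrays and the 9 members in red. ADE13 lies at 2.75 and −0.37, and ADE1, ADE17 and MTD1 lie close together between 1.61 and 1.74 on the x axis and between −0.68 and −0.43 on the y axis.

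Fitted to replicates 1 and 2 alone, 4 members were higher in arp6Δ, where 3.0% of 5730 features were: ADE13 by 2.75 (limma adjusted p = 0.00991), ADE1 by 1.74 (0.0416), MTD1 by 1.72 (0.0438) and ADE17 by 1.61 (0.0491). Fitted to replicates 3 and 4 alone, 2 members were lower, ADE17 at −0.68 (limma adjusted p = 0.0120) and ADE1 at −0.51 (0.0415), where 22.2% of 5882 features were. ADE1 and ADE17 passed the test in opposite directions in the pairs. The share of members called lower on replicates 3 and 4 was near that of all features, so those lower calls are not particular to the members. With 2 arrays in a fit the spread is borrowed largely from the other features, and the pairs were defined from the data, so these are values within each pair and not tests of arp6Δ cells in general.

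In swr1Δ, the members moved little and not in 1 direction: SHM2 was higher than wild type, and ADE12 and MTD1 were lower, each by 1.45-fold to 1.49-fold. These 3 of 9 members passed the test, where 22.1% of all 5893 features did (limma, adjusted p under 0.05, 2-sided). By direction, 1 member was higher where 11.2% of features were, and 2 members were lower where 10.9% were. The median of the 9 fitted values was −0.12, against 0.00 over all features.

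SHM2 read 0.49, 0.35 and 0.81 on swr1Δ replicates 1 to 3, above wild type on every array, for a mean of 0.55 ± 0.24 (SD, n = 3; 1.46-fold higher, limma adjusted p = 0.0327). MTD1 read −0.40, −0.66 and −0.53, below wild type on every array, for a mean of −0.53 ± 0.13 (1.45-fold lower, limma adjusted p = 0.0271). SHM2 and MTD1 passed the test in opposite directions in swr1Δ. As 11.2% of all features were called higher and 10.9% lower, a call each way is not particular to these genes. ADE12 read −0.31, −0.71 and −0.71, for a mean of −0.58 ± 0.23 (1.49-fold lower, limma adjusted p = 0.0288). The calls of SHM2, MTD1 and ADE12 were all lost without replicate 2 (limma adjusted p = 0.0990, 0.285 and 0.226, with 4.81% of all features called), without replicate 3 (0.144, 0.0771 and 0.0928, with 6.71% called) and where 1 fit over all 7 arrays set the spread (0.360, 0.666 and 0.322). That last fit called 0 of 5879 features in swr1Δ, with 790 features and 2 members at an unadjusted p under 0.05.

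Another 2 members stood on 1 side of wild type with an unadjusted p under 0.05 and missed the adjusted threshold. ADE17 read 0.10, 0.46 and 0.58 in swr1Δ, for a mean of 0.38 ± 0.25 (limma adjusted p = 0.0775). ADE4 read −0.08, −0.52 and −0.31, for a mean of −0.30 ± 0.22 (limma adjusted p = 0.120). Both were called without swr1Δ replicate 1, where 5 of 9 members and 53.7% of all features passed. In that fit the calls were ADE4, ADE12 and MTD1 lower and ADE17 and SHM2 higher.

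The other members lay closer to wild type. ADE8 read 0.06, 0.18 and 0.38 in swr1Δ, all above 0, for a mean of 0.20 ± 0.16 (limma adjusted p = 0.231). ADE6 read −0.28, −0.03 and −0.08, all below 0, for a mean of −0.13 ± 0.14 (limma adjusted p = 0.414). ADE1 and ADE13, which split by pair in arp6Δ, straddled 0 in swr1Δ. ADE1 read −0.14, −0.15 and 0.09 (mean −0.07 ± 0.13), and ADE13 read 0.07, −0.48 and 0.06 (mean −0.12 ± 0.32). Their 95% intervals were −0.34 to 0.20 and −0.46 to 0.23, much narrower than in arp6Δ, where they were −0.56 to 1.79 and −0.38 to 2.77.

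The difference between the mutants was tested in 1 fit over the 7 arrays, in which a fixed dye effect drops out. None of the 9 members passed, where 7.03% of all 5879 features did (limma, adjusted p under 0.05, 2-sided), and at an unadjusted p under 0.05 there were also 0 members, against 1701 features. For no member did the arp6Δ and swr1Δ values separate completely: all arp6Δ arrays were above all swr1Δ arrays for 16.8% of 5593 features and below them for 15.3%, and for 0 members either way. The highest difference of arp6Δ minus swr1Δ was that of ADE13, at 1.31 with a 95% interval of −0.70 to 3.31 (limma adjusted p = 0.349). MTD1 followed at 1.18 (−0.23 to 2.58, limma adjusted p = 0.237), and ADE12 stood at 0.50 (−0.14 to 1.13, limma adjusted p = 0.265). ADE1 stood at 0.68 (−0.78 to 2.15) and ADE4 at 0.63 (−0.20 to 1.46). For ADE17, ADE6 and SHM2 the difference was 0.09, 0.01 and −0.03, yet the intervals, −1.40 to 1.58, −0.72 to 0.74 and −0.74 to 0.68, were wide on both sides of 0 and do not show that the mutants act alike. ADE8 was the lowest at −0.28 (−0.79 to 0.22).

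**Figure D3:**
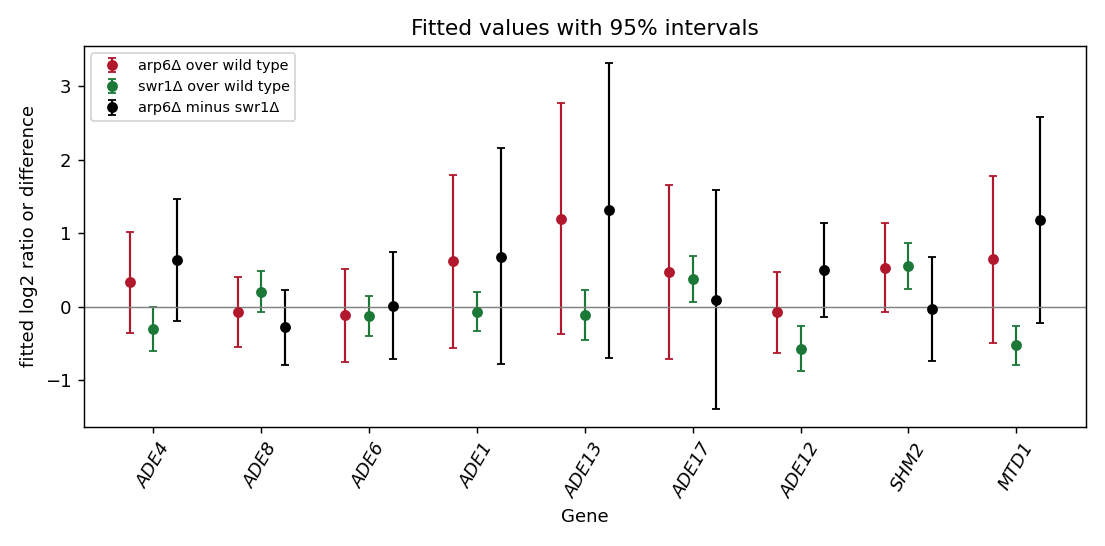
Fitted log2 ratio of arp6Δ over wild type (red, 4 arrays), of swr1Δ over wild type (green, 3 arrays) and the fitted difference arp6Δ minus swr1Δ (black, 7 arrays) for each member (x axis), with bars for the 95% interval. All red and black intervals cross 0, and the widest is that of ADE13, from −0.70 to 3.31 for the difference.

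Against the swr1Δ arrays, too, the result followed the pair of arp6Δ arrays used. With arp6Δ replicates 1 and 2 alone, 5 members were higher in arp6Δ than in swr1Δ, where 11.0% of 5709 features were: ADE13 by 2.87, MTD1 by 2.25, ADE1 by 1.81, ADE17 by 1.24 and ADE4 by 1.15 (limma adjusted p from 0.00979 to 0.0342). With arp6Δ replicates 3 and 4 alone, ADE17 was lower by a difference of −1.06 (limma adjusted p = 0.00563), the 1 call among the 9 members, where 20.8% of 5861 features were lower. The pairs were defined from the data, and the same arp6Δ arrays were used again. These are therefore values within each pair, not tests of arp6Δ against swr1Δ in general.

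The rest of the pathway was read from lists by function. Of the other genes of de novo AMP and GMP synthesis, 6 of 7 had values, and 5 were tested in arp6Δ. ADE2 (YOR128C) encodes the carboxylase between ADE5,7 and ADE1 in the pathway, and its log2 ratios were 1.40, 1.72, −0.09 and −0.16 in arp6Δ and −0.36, −0.13 and −0.30 in swr1Δ. It thus split by pair as ADE1 did, with a mean of 0.72 ± 0.98 in arp6Δ (limma adjusted p = 0.258) and −0.27 ± 0.12 in swr1Δ (0.123). ADE16 (YLR028C) encodes the isozyme of Ade17, and it did not split: it read −0.55, −0.56, −0.66 and −0.49 in arp6Δ, against 0.01, 0.08 and 0.24 in swr1Δ. Its mean in arp6Δ was −0.56 ± 0.07 (limma adjusted p = 0.113), and the difference between the mutants of −0.67 had an adjusted p of 0.0769 in limma. Probe sequences were not used here, so signal that the isozyme genes ADE16 and ADE17 may share on their probes cannot be told apart.

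GUA1 (YMR217W) encodes GMP synthetase at the end of the other branch. It was the 1 gene of the 5 tested from this list that was called in arp6Δ, where 5.3% of all features were. It read 1.79, 0.64, 1.64 and 1.27 in arp6Δ and −0.41, 0.23 and 0.08 in swr1Δ. Every arp6Δ array lay above every swr1Δ array, as for 16.8% of 5593 features. Its mean was 1.34 ± 0.51 in arp6Δ (limma adjusted p = 0.0425) and −0.04 ± 0.33 in swr1Δ (0.871), and the difference was 1.37 (0.0476). The arp6Δ call was lost whenever 1 array was left out (limma adjusted p from 0.0740 to 0.148), and that of the difference in 5 of 7 such fits (0.0240 to 0.197 over all 7). With 1 array left out, 0 to 69 features of all were called in arp6Δ, against 313 with all arrays. In the difference they numbered 3 to 773, against 413. The same arp6Δ fits were used for PRS1 and URA10 below. GUA1 was thus above wild type on all 4 arp6Δ arrays, unlike the genes that split by pair. So were IMD2 and IMD3 of this list, neither of them called (limma adjusted p = 0.105 and 0.0781), and IMD2 lies in a displaced stretch.

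PRPP synthesis showed 1 called gene of 5, in arp6Δ, where 5.3% of all features were called. PRS1 (YKL181W), a subunit gene of PRPP synthetase, read 1.37, 0.86, 0.74 and 1.12 in arp6Δ and 0.44, 0.14 and 0.14 in swr1Δ. Its mean was 1.02 ± 0.28 in arp6Δ (limma adjusted p = 0.0481, and 0.0765 to 0.183 with 1 array left out) and 0.24 ± 0.17 in swr1Δ (0.173), and the difference of 0.78 was not called (0.0828). The medians of the 5 genes were 0.51 in arp6Δ and 0.01 in swr1Δ.

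Among the other 18 genes of one-carbon metabolism, 0 were called in arp6Δ and 0 in the difference, where 5.3% and 7.03% of all features were. In swr1Δ 2 were higher and 2 lower, where 11.2% and 10.9% of all features were. The medians were 0.20 in arp6Δ, −0.14 in swr1Δ and 0.29 in the difference. ADE3 (YGR204W), the trifunctional cytoplasmic enzyme that makes the formyl donor of the purine pathway, stood at −0.20 ± 0.52 in arp6Δ (limma adjusted p = 0.632) and at 0.60 ± 0.38 in swr1Δ (0.0426). MET13 (YGL125W), a methylenetetrahydrofolate reductase gene, stood at −1.05 ± 0.70 in arp6Δ (limma adjusted p = 0.0862) and was higher in swr1Δ at 0.42 ± 0.06 (0.0392). The genes lower in swr1Δ were FOL3 (YMR113W), of dihydrofolate synthesis, at −0.50 ± 0.26 (limma adjusted p = 0.0417) and ABZ2 (YMR289W), of para-aminobenzoate synthesis, at −0.61 ± 0.20 (0.0240), with 0.27 ± 0.36 and 0.13 ± 0.17 in arp6Δ. All 4 of these swr1Δ calls were lost in the fit without replicate 2 or without replicate 3. SHM1 (YBR263W), the mitochondrial counterpart of SHM2, read 0.46, 0.60, −0.60 and −0.17 in arp6Δ (mean 0.07 ± 0.56, limma adjusted p = 0.873), higher on replicates 1 and 2 than on replicates 3 and 4 as SHM2 was, and stood at 0.25 ± 0.32 in swr1Δ (0.236).

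Purine salvage and transport had 16 of 17 genes with values. Of these, 0 were called in arp6Δ and 2 were higher in swr1Δ, where 11.2% of all features were. APT2 (YDR441C), a relative of the adenine phosphoribosyltransferase gene APT1, stood at 0.64 ± 0.20 in arp6Δ (limma adjusted p = 0.100) and at 0.94 ± 0.46 in swr1Δ (0.0230). FCY21 (YER060W), a gene of the purine-cytosine permease family, stood at 0.79 ± 0.28 in swr1Δ (limma adjusted p = 0.0227). Without swr1Δ replicate 2 neither was called (limma adjusted p = 0.0786 and 0.0943). The medians of the list were 0.14 in arp6Δ and 0.12 in swr1Δ. Pyrimidine synthesis, the other nucleotide pathway, had medians of −0.27 in arp6Δ and −0.19 in swr1Δ over 7 genes. Its 1 call was in arp6Δ, where 5.3% of all features were called. That gene, URA10 (YMR271C), was lower at −1.92 ± 1.04 (limma adjusted p = 0.0495, and 0.0619 to 0.157 with 1 array left out).

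The regulators were read next. BAS1 (YKR099W), which encodes the activator of the purine genes, read 1.46, 0.19, 0.35 and 0.56 in arp6Δ and −0.10, −0.40 and −0.58 in swr1Δ. It was above wild type on every arp6Δ array and below it on every swr1Δ array, with means of 0.64 ± 0.57 (limma adjusted p = 0.176) and −0.36 ± 0.24 (0.0867) and a difference of 1.00 (0.102), none of them called. The share of all features with these signs was not counted. By the wider measure of no overlap, 16.8% of 5593 features had every arp6Δ array above every swr1Δ array. PHO2 (YDL106C), which encodes the partner of Bas1, stood at 0.09 ± 0.27 in arp6Δ (limma adjusted p = 0.806) and at −0.15 ± 0.05 in swr1Δ (0.312). Neither regulator split by pair as the purine genes did: on replicates 3 and 4, where 7 of 9 and 6 of 9 members were below 0, BAS1 read 0.35 and 0.56.

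Histidine genes, which also share activation by Bas1 and Pho2 in part, had 6 of 7 genes with values and 0 calls in any comparison. Their medians on the arp6Δ arrays were 0.52, 0.26, −0.36 and −0.13, against 0.64, 1.15, −0.42 and −0.11 for the purine and one-carbon members, but 4 of the 6 lie in displaced stretches. The genes of phosphate uptake and storage, some of which Pho2 activates together with Pho4, gave another order. Their median was −0.38 and −0.07 on arp6Δ replicates 1 and 2 and −2.50 and −2.35 on replicates 3 and 4, against 0.09, 0.06 and 0.20 on the swr1Δ arrays. Of 15 such genes, 4 were lower in arp6Δ, where 190 of 5901 features were: the vacuolar phosphatase gene PHO8 (YDR481C) at −2.07 ± 0.53 (limma adjusted p = 0.0240), the regulator gene PHO81 (YGR233C) at −1.64 ± 0.61 (0.0381), PHM6 (YDR281C) at −3.14 ± 0.46 (0.0108) and PHM8 (YER037W) at −3.09 ± 0.70 (0.0385). PHM8 had values on 2 arp6Δ arrays and belongs to a displaced stretch of the table. After the rows had been moved back its call was lost (limma adjusted p = 0.0984), and the polyphosphate synthesis gene VTC2 (YFL004W), not called at −0.95 as deposited, was called at −1.95 (0.0472). With 1 arp6Δ array left out, 0 to 69 features of all were called. The calls of PHO8 and PHO81 were lost in all 4 such fits and that of PHM6 in 2 of 4. The medians of the phosphate genes and of the members were thus both lower on arp6Δ replicates 3 and 4 than on replicates 1 and 2.

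**Figure D4:**
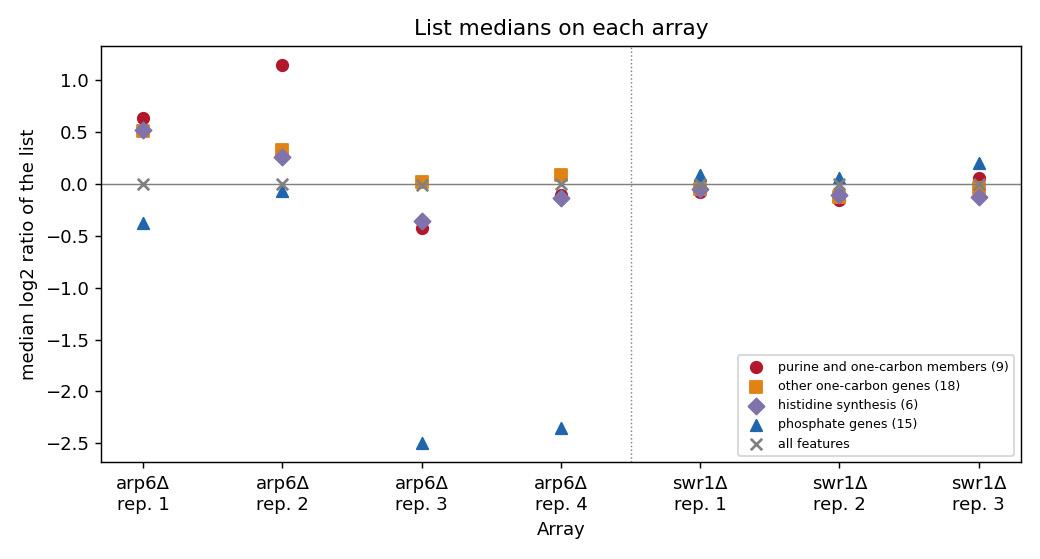
Median log2 ratio (y axis) on each of the 7 arrays (x axis, the 4 arp6Δ arrays left of the 3 swr1Δ arrays) for the 9 members, the 18 other one-carbon genes, the 6 histidine genes, the 15 phosphate genes and all features. The members fall between 0.64 and 1.15 on arp6Δ replicates 1 and 2 and at −0.42 and −0.11 on replicates 3 and 4, where the phosphate genes lie at −2.50 and −2.35.

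The genes whose pattern over the 7 arrays was most like the mean of the members (0.93, 1.12, −0.35 and −0.15 in arp6Δ and −0.06, −0.18 and 0.03 in swr1Δ) were ranked among 5102 named genes by Pearson's r, as a description over 7 arrays that share a platform and the 2 pairs of arp6Δ arrays. The highest were TRP2 (r = 0.996), HSV2 (0.994), TOG1 (0.993), YOS9 (0.990) and ADH5 (0.989). TRP2 and TOG1 lie in displaced stretches, and with the rows moved back their r was −0.589 and 0.721, whereas HSV2, YOS9 and ADH5 kept theirs. ADH5, an alcohol dehydrogenase gene, had the widest range of the 5, at 2.47, 2.51, −0.41 and 0.00 in arp6Δ and 0.07, 0.29 and 0.55 in swr1Δ. Of the genes in the lists, ADE2 had the highest r, 0.954 at rank 67, ahead of the histidine gene HIS7 (0.931, rank 114), the adenosine kinase gene ADO1 (0.930, rank 116) and the glycine cleavage gene GCV3 (0.926, rank 128).

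Markers of mating type and of meiosis were read as a check of the cells. Of 5 MATa markers 3 were higher in swr1Δ, where 11.2% of all features were: MFA2 at 1.09 ± 0.57 (limma adjusted p = 0.0230), AGA2 at 0.65 ± 0.30 (0.0275) and STE2 at 0.48 ± 0.17 (0.0371). Of 4 MATα markers, STE3 was lower in arp6Δ at −1.55 ± 0.69 (limma adjusted p = 0.0427) and SAG1 higher in swr1Δ at 0.51 ± 0.33 (0.0499), and 0 of 7 meiotic markers were called. In the fits with 1 arp6Δ array left out, which called 0 to 69 features of all, the STE3 call was always lost (limma adjusted p from 0.0601 to 0.153). Those of AGA2, STE2 and SAG1 were lost without swr1Δ replicate 2 (limma adjusted p = 0.185, 0.307 and 0.178) and without replicate 3 (from 0.0669 to 0.247), and none of the swr1Δ marker calls held in the fit over all arrays. The medians of the MATa list were 0.59, 0.41, 0.28 and −0.07 on the arp6Δ arrays and 0.29, 0.86 and 0.62 on the swr1Δ arrays. These are ratios and do not show whether a marker is absent from both strains, and their part in the values of the purine genes was not tested. In RNA of whole cultures, fewer cells of a type and less RNA per cell cannot be told apart.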

How the data were processed

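The members and the gene lists were chosen with earlier results of these data known. Each probe has 1 deposited value per array, a log2 ratio of deletion strain (Cy5) to wild type (Cy3) that was normalised by the authors; its base and direction were settled from the values. For the scanner, background correction and normalisation the method was not given in the sources used here, and spot intensities were not analysed, so signal over background is unknown and the few arrays limit precision. The study's methods state independent cultures, but not whether arp6Δ arrays share one or whether all arrays used the same wild-type RNA, in which case a test against wild type leaves out the wild type's own spread.

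Of 6912 probes, 5945 had values and 5446 had 1 gene symbol, from the platform annotation updated through a RefSeq gene table; probes of 1 gene were averaged. Features with values on 2 or more arrays of every mutant in a fit were tested with lmFit and eBayes of limma 3.58.1 (R 4.3.3), 2-sided, with Benjamini-Hochberg adjustment over all features at 0.05: each mutant on its own arrays against 0, and arp6Δ minus swr1Δ over the 7 arrays. Intervals are unadjusted 95% intervals. Displaced rows were sought as the best path of row-by-row matches of arp6Δ replicates 1 and 2 to replicates 3 and 4, at offsets of up to 3 rows. The match assumed a correlation of 0.5, with a fixed cost of 8 for each change of offset. Correlations then described the stretches found and the genes around each member. Alternatives were scaling, centring, 1 probe per gene, features on all arrays, displaced rows moved back, arrays left out, each arp6Δ pair alone, 1 spread over all arrays, array weights, a replicate block and the methods' t-test. Only the limma fits were tested on simulated ratios, with independent arrays and without the pairs seen among the arp6Δ arrays. Genes named are all members, list genes past the threshold (at most 6 a list) and the 5 most alike in pattern. ADE2, ADE3, ADE16, SHM1, BAS1 and PHO2 were named for their roles. HIS7, ADO1, GCV3, VTC2, IMD2 and IMD3 were named after their values were seen.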

Additional observations from a re-analysis of the deposited data

Results flagged for a closer look

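Of the genes in the lists, GUA1 and 5 phosphate genes were called in the difference between the mutants, where 7.03% of all features were. GUA1 was higher in arp6Δ than in swr1Δ by 1.37 on the log2 scale (limma adjusted p = 0.0476). Among the phosphate genes, the difference of arp6Δ minus swr1Δ was −3.38 for PHM6 (limma adjusted p = 0.0205), −2.06 for PHO8 (0.0215) and −1.56 for PHO81 (0.0412). With 1 array left out these calls were kept in 3, 3 and 2 of 7 fits (limma adjusted p up to 0.131, 0.155 and 0.197), and that of GUA1 in 2 of 7. These 7 fits called 3 to 773 features of all. PHM8 stood at −2.66 (0.0280), with values on 2 arp6Δ arrays, and VTC1 at −1.73 (0.0412). Both belong to displaced stretches of the table, and after the rows had been moved back they were not called (limma adjusted p = 0.256 and 0.0852).

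For MET13, ADE16 and BAS1, as for some other genes of the lists, every arp6Δ array lay on 1 side of wild type and every swr1Δ array on the other. For none of these 3 did limma call the difference. The share of all features with such opposite signs was not counted. By the wider measure of no overlap between the mutants, 16.8% of 5593 features were above in arp6Δ and 15.3% below. The 3 were not chosen by size: IMD3 showed the same pattern with a difference of 1.29 (limma adjusted p = 0.0667). MET13 was below wild type in arp6Δ and above it in swr1Δ, with a difference of −1.47 (limma adjusted p = 0.0543). ADE16, the isozyme gene of ADE17, did the same at −0.67 (0.0769), and BAS1 was above wild type in arp6Δ and below it in swr1Δ at 1.00 (0.102).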

How the results depend on the processing

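The arp6Δ count of called members was 0 over all 4 arrays and in the other alternatives run, with the exception of 4 on replicates 1 and 2 alone and 2 on replicates 3 and 4 alone. The median of the members was 0.47, but 0.89 on replicates 1 and 2 alone, −0.33 on replicates 3 and 4 alone, 0.23 with arrays scaled to a common spread and 0.12 to 0.66 with 1 array left out. Signs turned on replicates 3 and 4 alone for ADE1 (−0.51), ADE4 (−0.19), ADE6 (0.17), ADE13 (−0.37), ADE17 (−0.68) and MTD1 (−0.43), and on replicates 1 and 2 alone for ADE12 (0.17). With 1 array left out, ADE6 ranged from −0.27 to 0.13 and ADE12 from −0.18 to 0.10. The methods' t-test after Benjamini-Hochberg adjustment called 0 of 5901 features in arp6Δ and 0 of 5893 in swr1Δ. The swr1Δ count of 3 members thus became 0 by that test, and 0 in the fit over all arrays, which called 0 of 5879 features. The swr1Δ count was 2 by the t-test unadjusted with its fold limit, for which the share over all features was not counted. With 1 array left out it ranged from 0 (without replicate 2, and without replicate 3) to 5 (without replicate 1), and ADE13 ranged from −0.21 to 0.07.

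The count for arp6Δ minus swr1Δ was 0, except 5 with arp6Δ replicates 1 and 2 alone and 1 with replicates 3 and 4 alone, where its median of 0.50 became 1.15 and −0.25. With 1 array left out the median ranged from 0.27 to 0.68. Signs turned with arp6Δ replicates 3 and 4 alone for ADE1 (−0.44), ADE13 (−0.25) and ADE17 (−1.06), with replicates 1 and 2 alone for ADE6 (−0.29) and SHM2 (0.34), and with arrays scaled to a common spread for ADE17 (−0.26). With 1 array left out, ADE6 ranged from −0.14 to 0.27, ADE17 from −0.33 to 0.50 and SHM2 from −0.24 to 0.11. The causes were not tested.

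Samples with the same number did not deviate together (r of 0.0156, 0.0526 and −0.0544, against −0.18 to 0.179 for unlike numbers). Deviations from a mutant's own mean cannot show whether arrays share a culture or wild-type RNA. Whether the numbers pair the samples is therefore not settled. With the replicate block, ADE6 stood at −0.14 and SHM2 at 0.11, the median at 0.48, and 0 members were called, with 2 features called of all, against 413 without the block. Calls over all features moved as well. In arp6Δ they numbered 313, but 804 with scaled arrays, 1577 in the fit over all arrays and 0 to 69 with 1 array left out. In swr1Δ they numbered 1301, but 280 to 3135 with 1 array left out. The difference had 765 with array weights, 1142 with scaled arrays and 3 to 773 with 1 array left out.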
